A study of Mus musculus with 10 samples.

Results

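The genes described here are those whose symbol starts with Clec and a digit, that is, the Clec-named members of the C-type lectin domain superfamily. The deposited table lists 32 of them among its 24421 genes. In 13 of the 32 the value is 0 in all 10 tumors, so 19 were measured, among 12926 measured genes in all. Those listed at 0 are Clec12b, Clec18a, Clec1b, Clec2e, Clec2f, Clec2g, Clec2h, Clec2l, Clec3a, Clec4a4, Clec4b2, Clec4f and Clec4g. The 19 measured genes do not all encode receptors: Clec3b and Clec11a encode secreted proteins and Clec16a a protein inside the cell.

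Gene expression was measured by RNA sequencing of whole tumors grown in 5 Siah2 knockout mice (Siah2 KO) and in 5 wild-type (WT) mice. Siah2 is a RING-type ubiquitin ligase, and the knockout removes it from the whole mouse. Each mouse, a C57BL/6 male of 6 to 10 weeks, received 100000 YUMMER1.7 cells under the skin of the flank, and tumors were taken after 10 days. The cell number is that of the sample records, while the study's methods give a larger default for this line. Age and sex are those the study reports for all its mice. YUMMER1.7 is a BRAF-mutant mouse melanoma line that was made more immunogenic by ultraviolet light. Both groups carried the same injected line, whose own Siah2 genotype no source used here states, so the genotypes differ in the host cells of the tumor.

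C-type lectins share a fold that binds sugars, lipids or proteins, often with the help of calcium. On macrophages, monocytes, neutrophils and dendritic cells the activating members recognise fungal and bacterial surfaces or material from dying cells. They signal through the kinase Syk, either by way of an adaptor that carries an activating motif (the Fc receptor gamma chain, Fcer1g, or DAP12, Tyrobp) or through a motif in their own tail. Inhibitory members carry a different tail motif, which recruits phosphatases. Other members serve the uptake of sugar-bearing proteins, are ligands of natural killer (NK) cell receptors, or sit on the endothelium of blood vessels.

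Most measured Clec genes lie on chromosome 6, and the promoters of the 4 with the largest increase are shown because these genes encode different kinds of receptor (Clec4d, Clec4e and Clec7a activating, Clec12a inhibitory) and lie in both of the Clec gene groups on that chromosome. Each run is the 250 bases before the start site given by RefSeq (build GRCm38.p6), written 5′ to 3′ on the strand of the gene. Capitals mark matches to 3 short motifs searched on both strands: the PU.1 core GAGGAA (PU.1 is the master transcription factor of myeloid cells), the C/EBP motif TTNNGNAA and the AP-1 motif TGANTCA. No marked match overlaps another.
Clec4d promoter, chr6:123261857-123262106 (plus strand): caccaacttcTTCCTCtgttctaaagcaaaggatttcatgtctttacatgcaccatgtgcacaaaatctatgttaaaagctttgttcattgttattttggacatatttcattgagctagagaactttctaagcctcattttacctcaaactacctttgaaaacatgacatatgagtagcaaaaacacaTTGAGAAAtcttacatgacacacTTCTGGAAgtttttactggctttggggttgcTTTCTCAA
Clec4e promoter, chr6:123289872-123290121 (minus strand): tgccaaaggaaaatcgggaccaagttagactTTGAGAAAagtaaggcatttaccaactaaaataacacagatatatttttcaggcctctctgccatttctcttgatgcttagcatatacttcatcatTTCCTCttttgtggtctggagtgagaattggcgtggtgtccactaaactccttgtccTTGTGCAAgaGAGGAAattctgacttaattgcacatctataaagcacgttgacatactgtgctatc
Clec7a promoter, chr6:129472780-129473029 (minus strand): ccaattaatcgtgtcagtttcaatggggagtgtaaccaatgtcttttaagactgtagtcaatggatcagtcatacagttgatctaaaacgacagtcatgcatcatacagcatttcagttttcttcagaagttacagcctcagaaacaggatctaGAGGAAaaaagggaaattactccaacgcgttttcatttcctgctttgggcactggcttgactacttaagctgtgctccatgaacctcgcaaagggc
Clec12a promoter, chr6:129349994-129350243 (plus strand): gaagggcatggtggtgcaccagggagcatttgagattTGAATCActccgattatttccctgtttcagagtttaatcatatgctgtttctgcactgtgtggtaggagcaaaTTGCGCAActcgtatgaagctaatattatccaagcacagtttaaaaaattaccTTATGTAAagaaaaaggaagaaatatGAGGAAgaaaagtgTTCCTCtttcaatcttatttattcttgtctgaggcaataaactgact

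The Clec4e promoter held 2 PU.1 cores, with first bases at -123 and -56 from the start site, and C/EBP matches at -219 and -66. The Clec4d promoter held 1 PU.1 core at -240 and 3 C/EBP matches at -62, -39 and -8. Clec7a had a single PU.1 core at -96 and no other marked match. Clec12a had PU.1 cores at -61 and -47, C/EBP matches at -140 and -87 and an AP-1 match at -213. Its RefSeq start lies inside the longer span that the GENCODE annotation gives this gene.

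RefSeq gave a promoter for 15 of the 19 measured genes, and the first listed start was used where it gave more than 1. The PU.1 core was present in 10 of these 15 (66.7%) and in 23.1% of 27025 mouse promoters of the same length. The C/EBP motif was present in 9 of 15 (60.0%) and in 36.9% of all promoters. The NF-kB motif (GGG and CC with 5 bases between them) was found in 2 of 15 (13.3%), against 45.4% of all promoters. The AP-1 motif and the STAT motif TTCNNNGAA were each found in 1 of 15 (6.67%), against 6.87% and 7.18% of all promoters. The hypoxia core ACGTG was in 2 of 15 (13.3%), against 16.6%, and the E-box CANNTG in 11 of 15 (73.3%), against 66.0%. These are matches of letters, given as a description with no test. The comparison makes no allowance for base composition or for the relatedness of neighbouring Clec genes.

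Values are normalized scores, which are read counts per gene scaled between libraries by the authors and rounded. Library totals were 15605574 to 16503134 in KO-labelled tumors and 15414758 to 15527530 in WT tumors. Siah2 itself (chromosome 3) went against the label, with scores of 573, 739, 747, 490 and 610 in the tumors labelled Siah2 KO, against 391, 428, 407, 393 and 408 in WT tumors. Every KO-labelled tumor was above every WT tumor (log2 difference 0.62 ± 0.11, limma adjusted p = 0.00104). Reads from any exon and from both host and injected cells enter this score, and no source used here gives the position of the knockout allele's deletion. The tumors are therefore called KO-labelled, and each direction rests on those labels. The defining melanocyte genes Tyr, Tyrp1, Dct, Pmel, Mlana and Sox10 are listed at 0 in all 10 tumors, so the tissue label of melanoma could not be checked with them. Of the 2 other genes of that list, Mitf averaged 359 in KO-labelled and 346 in WT tumors (limma adjusted p = 0.767), and S100b was lower, with 3 to 29 in KO-labelled tumors and 63 to 116 in WT tumors (log2 difference -2.90 ± 0.43, adjusted p = 0.00029).

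Of the 19 measured Clec genes, 9 (47.4%) were higher and 2 (10.5%) lower in KO-labelled tumors, while the remaining 8 missed the threshold (limma on log2(score + 1), Benjamini-Hochberg adjustment over all 12926 genes, threshold 0.05). Over all measured genes 17.5% were called higher and 18.2% lower, so the share of Clec genes called higher was above the background and the share called lower was below it. The median log2 difference, KO-labelled minus WT, was 0.46 over the Clec genes and -0.00056 over all genes. The groups did not overlap for 8 Clec genes, with every KO-labelled tumor above every WT tumor in 6 and below it in 2. Over all genes 24.8% did not overlap, 11.9% fully above and 12.9% fully below. A log2 difference over 1 together with a call was found for 4 Clec genes (Clec4d, Clec4e, Clec7a and Clec12a), against 2.68% of all genes, and an unadjusted p under 0.01 with a log2 difference over 1 in either direction for 6 (these 4, Clec14a and Clec1a), against 5.99% of all genes. Because whole tumors were sequenced, a change in the number of cells of a type and a change in RNA per cell cannot be told apart. The count of 9 fell to 5 without WT replicate 4, when Clec2i, Clec4a2, Clec4a3 and Clec5a were lost, and also to 5 (Clec12a, Clec4a1, Clec4d, Clec4e and Clec7a) without KO-labelled replicate 3 and column KO4 together. With every library rescaled to the same total, 38.6% of all calls were higher instead of 49.0%, and 7 Clec genes were higher and 3 lower.

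**Figure D1:**
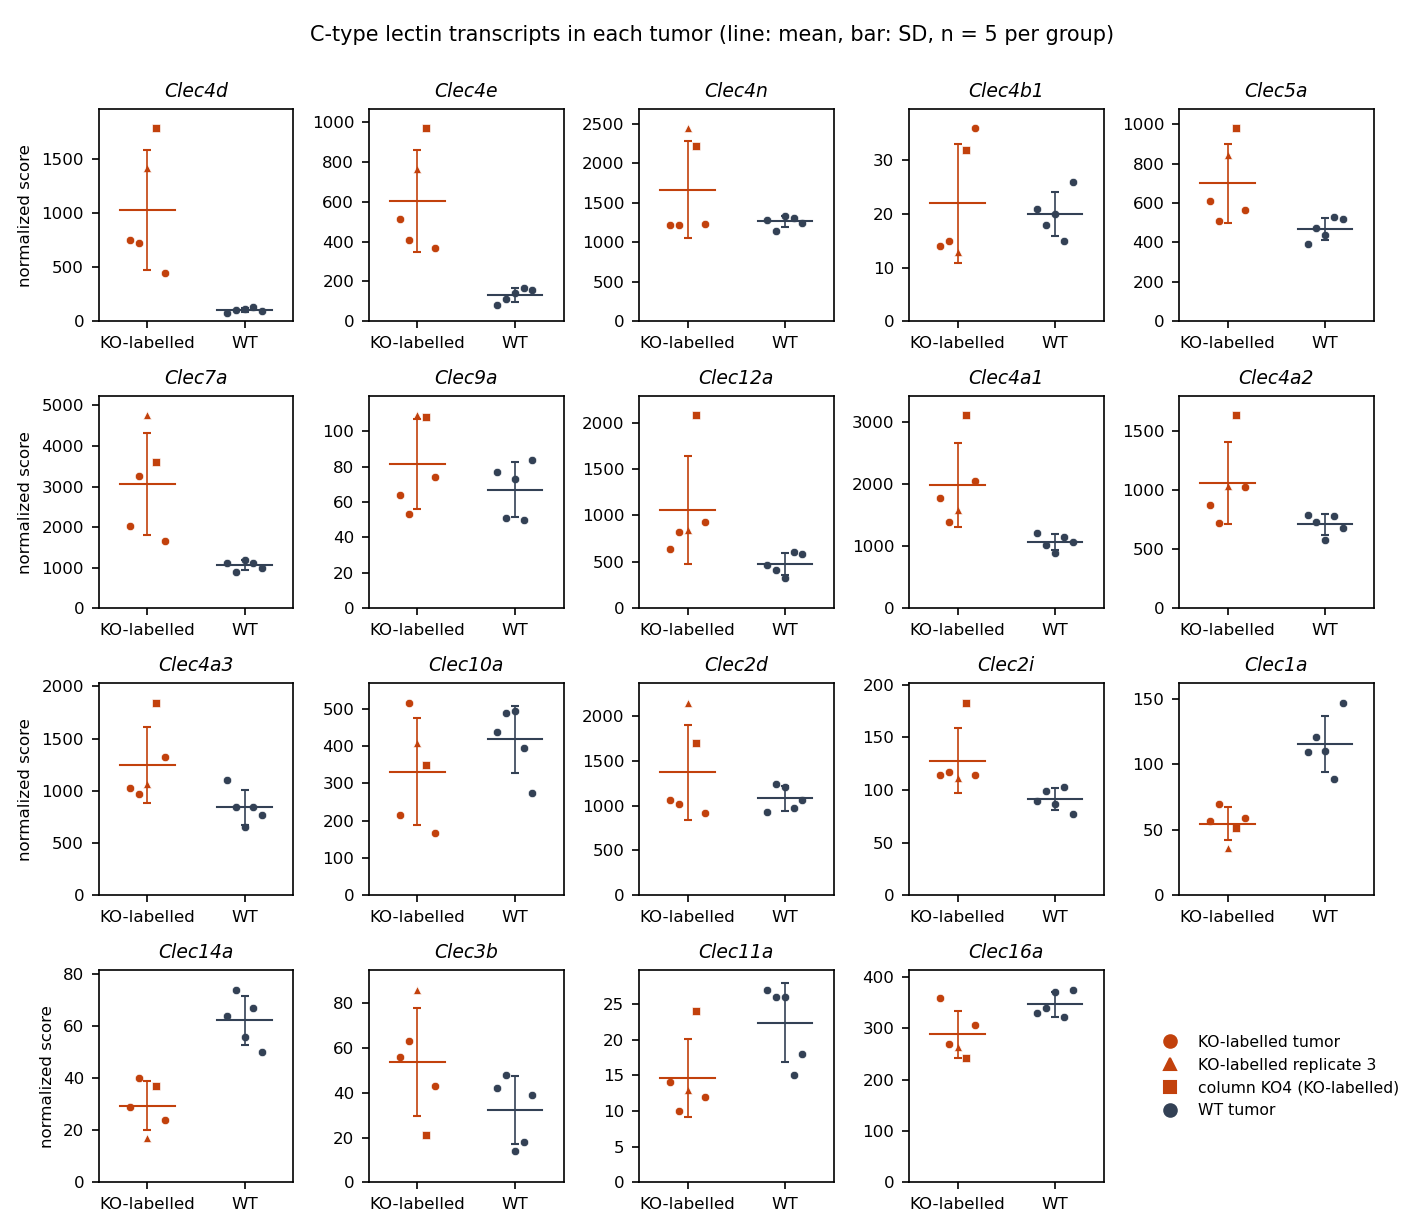
Normalized score (y axis) of the 19 measured Clec genes in each tumor, with KO-labelled tumors in orange and WT tumors in slate, the line at the mean and the bar showing the SD (n = 5 per group). Clec4d, Clec4e, Clec7a, Clec12a, Clec4a1 and Clec2i have every KO-labelled tumor above every WT tumor, and Clec1a and Clec14a have every KO-labelled tumor below.

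Clec4d and Clec4e changed most. They encode MCL and Mincle, receptors that bind mycobacterial cord factor, pair with the Fc receptor gamma chain and can form a joint complex. Clec4d scored 754, 723, 1419, 1783 and 448 in KO-labelled tumors, in the order of replicates 1, 2 and 3 and columns KO4 and KO5, against 76, 100, 113, 134 and 96 in WT replicates 2 to 6. The lowest KO-labelled tumor was thus far above the highest WT tumor, and the KO-labelled tumors varied widely among themselves. The mean was 1025 ± 554 in KO-labelled tumors and 103.8 ± 21.5 in WT tumors (SD, n = 5 each), a ratio of means of 9.88, and the log2 difference was 3.14 ± 0.31 (SE, limma adjusted p = 1.51e-05). Only 5 of the 12926 genes had a larger log2 difference.

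Clec4e, whose product Mincle also senses a nuclear protein released by dying cells, scored 515, 410, 765, 970 and 368 in KO-labelled tumors, against 82, 110, 143, 167 and 158 in WT tumors. Again the groups did not overlap, and the tumors that were highest for Clec4d (replicate 3 and column KO4) were highest for Clec4e. The mean was 605.6 ± 255 in KO-labelled tumors and 132.0 ± 35.4 in WT tumors, and the log2 difference was 2.14 ± 0.27 (limma adjusted p = 8.47e-05), the 40th largest of all genes. Leaving out each tumor in turn gave log2 differences of 2.90 to 3.40 for Clec4d and 1.94 to 2.29 for Clec4e, all past the threshold.

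Both genes rose, but not in proportion. The ratio of Clec4d to Clec4e within a tumor was 1.46, 1.76, 1.85, 1.84 and 1.22 in KO-labelled tumors, against 0.928, 0.910, 0.792, 0.804 and 0.610 in WT tumors. Clec4d was the higher score of the pair in all KO-labelled tumors and the lower in all WT tumors. On the log2 scale the ratio differed by 1.01 ± 0.16 (SE, two-sided exact permutation test over 252 arrangements, p = 0.00794, the smallest this design allows, adjusted over 8 ratios p = 0.0212). The genes are neighbours, transcribed towards each other from opposite strands with 6.523 kb between them (GRCm38, Clec4d at chr6:123262111-123275265, Clec4e at chr6:123281789-123289870), and they share no 75-base window of exon sequence with any other gene.

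Clec4e was also set against Csf1r, the growth factor receptor of macrophages and monocytes. Csf1r averaged 5485 ± 1018 in KO-labelled tumors and 5734 ± 459 in WT tumors (limma adjusted p = 0.607). The Clec4e to Csf1r ratio lay between 0.0702 and 0.151 in KO-labelled tumors and between 0.0133 and 0.0310 in WT tumors. The log2 difference of the ratio was 2.21 ± 0.30 (exact permutation test, adjusted p = 0.0212). Csf1r ranged from 4614 to 7246 in KO-labelled tumors and from 5190 to 6258 in WT tumors. With the Clec4e groups so far apart, this ratio had to separate. Its p-value therefore adds nothing to the separate result of Clec4e. Other myeloid genes than Csf1r rose, and against the sum of 10 macrophage markers the log2 difference of Clec4e was 1.83.

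The other adaptor-coupled receptors changed less or did not pass the test. Clec5a (MDL-1), which signals through DAP12, scored 610, 511, 844, 980 and 564 in KO-labelled tumors, against 391, 471, 438, 527 and 519 in WT tumors. Its groups overlapped, since KO-labelled replicate 2 lay below the 2 highest WT tumors, and the log2 difference was 0.54 ± 0.17 (limma adjusted p = 0.0226). Without WT replicate 2, WT replicate 4 or KO-labelled replicate 3 it was 0.48, 0.52 or 0.47 and no longer past the threshold.

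Clec4n (Dectin-2), a receptor for fungal mannans, scored 1220, 1214, 2444, 2222 and 1230 in KO-labelled tumors, against 1282, 1149, 1338, 1312 and 1247 in WT tumors. Replicate 3 and column KO4 stood above all others while the remaining KO-labelled tumors lay within the WT range, and the log2 difference of 0.32 had a 95% interval of -0.09 to 0.74 (limma adjusted p = 0.205). Without those 2 tumors it was -0.05. Clec4b1 (DCAR) was low in both groups, with 13 to 36 in KO-labelled tumors and 15 to 26 in WT tumors, and a log2 difference of 0.02 with an interval of -0.65 to 0.69. Dectin-2 and MCL share an adaptor, and their genes lie 15.089 kb apart, yet Clec4d had every KO-labelled tumor above the WT tumors and Clec4n only 2 of 5.

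Clec7a and Clec9a encode receptors that carry an activating motif in their own tail. Clec7a (Dectin-1), the receptor for fungal beta-glucan, scored 2026, 3251, 4752, 3616 and 1669 in KO-labelled tumors, against 1121, 895, 1185, 1127 and 997 in WT tumors. No tumors overlapped, and the score had the highest mean of any Clec gene in KO-labelled tumors. The mean was 3063 ± 1246 in KO-labelled tumors and 1065 ± 117 in WT tumors, a ratio of 2.88, and the log2 difference was 1.43 ± 0.23 (limma adjusted p = 0.000523). GENCODE classes Clec7a as a polymorphic pseudogene, a gene that is intact in some mouse strains only.

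Clec9a (DNGR-1), which detects actin filaments exposed on dead cells and marks type 1 conventional dendritic cells, scored 64, 53, 109, 108 and 74 in KO-labelled tumors, against 77, 51, 73, 50 and 84 in WT tumors. The groups overlapped and the log2 difference of 0.26 had an interval of -0.24 to 0.75 (limma adjusted p = 0.402). Its ratio to Xcr1, another gene of these dendritic cells, was 0.985 to 1.64 in KO-labelled tumors and 1.27 to 1.60 in WT tumors, with a log2 difference of 0.03 ± 0.15 (exact permutation test, adjusted p = 0.905). Of the 8 type 1 dendritic cell markers, 1 was higher and 2 were lower. Some 3.23% of the 75-base windows of Clec9a also occur in Clec1b, whose exons it overlaps.

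Clec12a and the 3 measured genes of the dendritic cell immunoreceptor (DCIR) family were all called higher, against 17.5% of all genes. Clec12a (MICL), which binds uric acid crystals from dead cells and restrains myeloid activation, scored 633, 817, 845, 2076 and 927 in KO-labelled tumors, against 468, 412, 327, 609 and 582 in WT tumors. The groups did not overlap, although KO-labelled replicate 1 was close to the highest WT tumor and column KO4 stood far above the rest. The log2 difference was 1.05 ± 0.27 (limma adjusted p = 0.00935), and it was 0.77 to 1.20 when each tumor was left out in turn. Clec7a and Clec12a, an activating and an inhibitory receptor of the same chromosomal group, were compared within tumors. Their ratio, which did not pass the test, was 1.74 to 5.62 in KO-labelled tumors and 1.71 to 3.62 in WT tumors (log2 difference 0.38 ± 0.38, exact permutation test, adjusted p = 0.399).

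Clec4a1, Clec4a2 and Clec4a3 belong to the DCIR family, in which Clec4a2 encodes DCIR itself with an inhibitory tail motif. Clec4a1 scored 1776, 1394, 1583, 3112 and 2057 in KO-labelled tumors, against 1216, 1028, 890, 1156 and 1066 in WT tumors. The groups were apart, and the log2 difference was 0.84 ± 0.18 (limma adjusted p = 0.0029). Clec4a2 scored 870, 721, 1033, 1628 and 1025 in KO-labelled tumors, against 788, 729, 572, 778 and 680 in WT tumors, a log2 difference of 0.53 ± 0.18 (adjusted p = 0.0339). Only KO-labelled replicate 2 fell within the WT range.

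Clec4a3 scored 1030, 966, 1070, 1845 and 1328 in KO-labelled tumors, against 1101, 847, 650, 845 and 765 in WT tumors, a log2 difference of 0.55 ± 0.17 (limma adjusted p = 0.0278). WT replicate 2 lay above 3 of the KO-labelled tumors. For Clec4a2 the difference was 0.54, 0.45, 0.51 and 0.52 and not past the threshold without WT replicate 3, 4 or 6 or KO-labelled replicate 3, and for Clec4a3 it was 0.55, 0.46 and 0.52 without WT replicate 3, 4 or 6. Without columns KO4 and KO5 both differences were 0.30, and without KO-labelled replicate 3 and column KO4 they were 0.29 for Clec4a2 and 0.40 for Clec4a3, none past the threshold. Clec4a2 shares 3.24% of its 75-base windows with Clec4a4 and Clec4b1, so a small part of its reads could be split between these genes.

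The activating Clec4n and the inhibitory Clec4a2 were compared within tumors as well. Their ratio was 1.20 to 2.37 in KO-labelled tumors and 1.57 to 2.34 in WT tumors, and the log2 difference of -0.20 ± 0.20 did not pass the test (exact permutation test, adjusted p = 0.399).

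**Figure D2:**
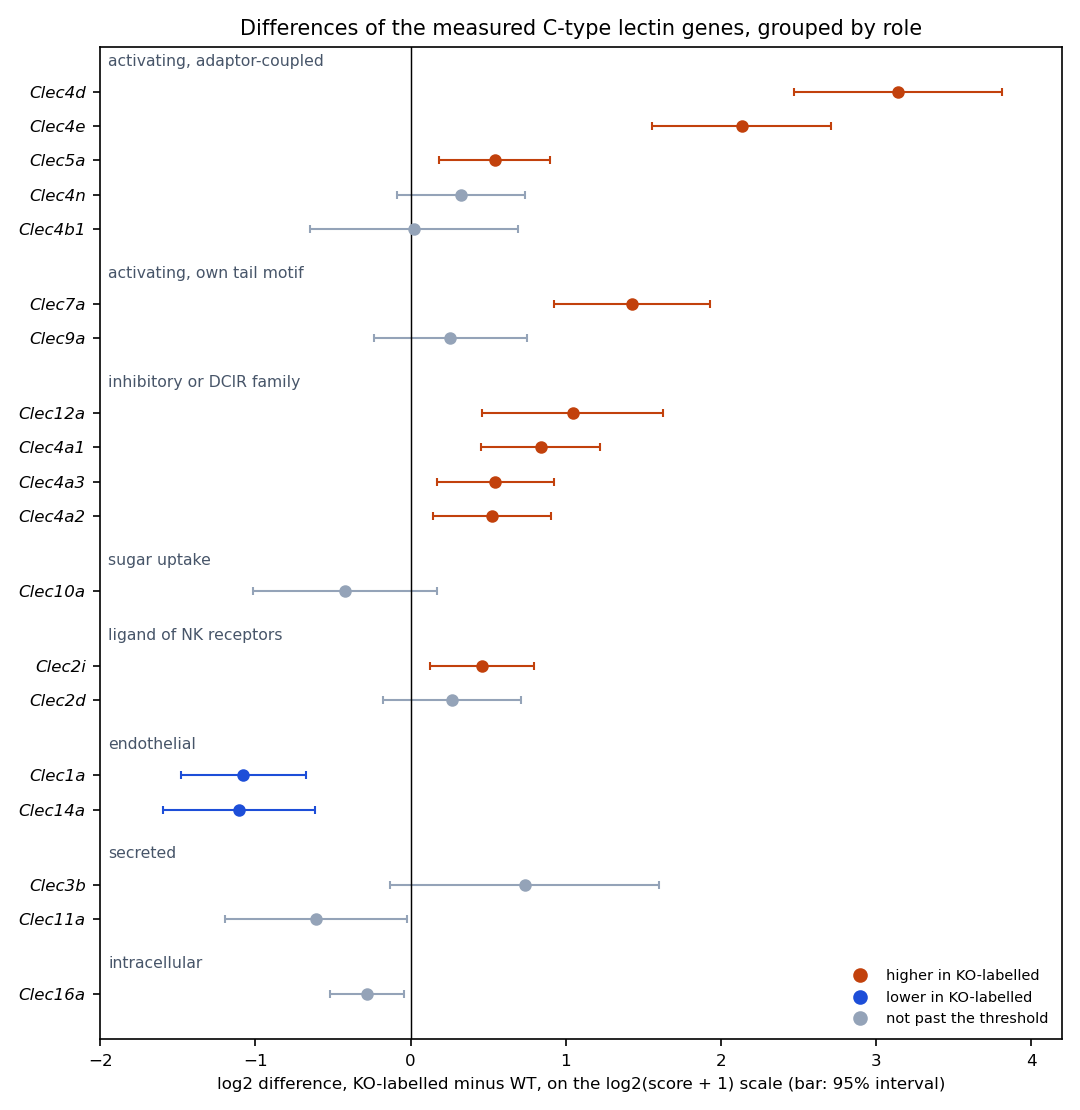
Log2 difference (x axis, KO-labelled minus WT, limma on log2(score + 1), bars are 95% intervals) of each measured Clec gene, grouped by the role of its product. Clec12a and the 3 DCIR family genes are higher, 3 of 5 adaptor-coupled receptors are higher, and both endothelial genes are lower.

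Clec10a (MGL1), which takes up proteins with exposed galactose or N-acetylgalactosamine, did not pass the test. It scored 214, 516, 409, 349 and 167 in KO-labelled tumors, against 437, 488, 493, 394 and 275 in WT tumors, with overlapping groups and a log2 difference of -0.42 (interval -1.01 to 0.17, limma adjusted p = 0.248). Its paralog Mgl2, with which it shares 4.44% of its 75-base windows, averaged 462.0 ± 295 in KO-labelled tumors and 1065 ± 433 in WT tumors (log2 difference -1.36 ± 0.39, adjusted p = 0.0172). The mannose receptor Mrc1 was also lower, with a mean of 4174 ± 1445 in KO-labelled tumors and 7682 ± 2050.4 in WT tumors (log2 difference -0.90 ± 0.22, adjusted p = 0.0075). The Clec10a to Mrc1 ratio, 0.0506 to 0.111 in KO-labelled tumors and 0.0485 to 0.0611 in WT tumors, differed by 0.48 ± 0.21 on the log2 scale (exact permutation test, adjusted p = 0.14). Without KO-labelled replicate 1 the difference was 0.63 and passed the threshold (adjusted p = 0.0159).

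Clec2d and Clec2i encode Clr-b and Clr-g, ligands of receptors of the NKR-P1 family on NK cells, Clr-b being a sign of a healthy cell that holds NK cells back. Clec2i scored 114, 117, 111, 183 and 114 in KO-labelled tumors, against 90, 99, 87, 103 and 77 in WT tumors. Every KO-labelled tumor was above the WT tumors by a small margin, and 4 of the 5 were almost alike. The log2 difference was 0.46 ± 0.15 (limma adjusted p = 0.0336), and it was 0.33, 0.46, 0.45 and 0.40 and not past the threshold without column KO4 or WT replicate 2, 4 or 6. It was also lost with equal library totals (0.40, adjusted p = 0.0576).

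Clec2d scored 1066, 1017, 2147, 1700 and 922 in KO-labelled tumors, against 925, 1245, 1205, 972 and 1064 in WT tumors. As for Clec4n, replicate 3 and column KO4 were high and the other KO-labelled tumors were in or just below the WT range (log2 difference 0.27, interval -0.18 to 0.71, limma adjusted p = 0.326). Without these 2 tumors the difference was -0.10. Ptprc, the pan-leukocyte gene CD45, rose by 0.78 ± 0.09 (adjusted p = 3.29e-05). The Clec2d to Ptprc ratio was 0.138 to 0.341 in KO-labelled tumors and 0.227 to 0.354 in WT tumors, a log2 difference of -0.52 ± 0.26 (exact permutation test, adjusted p = 0.14), which was -0.72 without KO-labelled replicate 3 (adjusted p = 0.0159). Klrb1b, the inhibitory receptor for Clr-b, was higher, with 739.8 ± 193 in KO-labelled tumors and 390.2 ± 55.0 in WT tumors (log2 difference 0.89 ± 0.16, limma adjusted p = 0.00115). Klrb1f, the other NKR-P1 gene of the ligand list, did not pass. It averaged 70.0 ± 24.8 in KO-labelled and 50.6 ± 15.1 in WT tumors (log2 difference 0.45 ± 0.25, limma adjusted p = 0.176). All 5 tested NK cell markers were higher, against 17.5% of all genes. Their summed scores were 2628 to 3973 in KO-labelled tumors and 984 to 1620 in WT tumors. Gzma was the largest part of these sums and rose by 1.86 on the log2 scale. The other NK cell markers rose by 0.47 to 1.01. All 6 tested T cell markers were higher as well. The part of NK cells and T cells in these results was not tested.

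Both endothelial members fell. Clec14a, a receptor of vessel endothelium that takes part in sprouting, scored 29, 40, 17, 37 and 24 in KO-labelled tumors, against 64, 74, 56, 67 and 50 in WT tumors. The highest KO-labelled tumor was below the lowest WT tumor, and the log2 difference was -1.10 ± 0.23 (limma adjusted p = 0.00243). Clec1a, which recognises fungal melanin and is expressed by endothelium, scored 57, 70, 36, 51 and 59 in KO-labelled tumors, against 109, 121, 110, 89 and 147 in WT tumors, a log2 difference of -1.08 ± 0.19 (adjusted p = 0.000798). Its groups did not overlap either, and KO-labelled replicate 3 was the lowest tumor for both genes. When each tumor was left out in turn the differences ranged from -1.23 to -0.93 for Clec14a and from -1.17 to -0.94 for Clec1a, all past the threshold.

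General endothelial genes did not move as a group. Of 12 tested, 2 were higher, 4 were lower and 6 did not pass, against 17.5% higher and 18.2% lower over all genes. Beside the 2 genes given next, Emcn was higher (1.13), and Vwf (-0.83), Robo4 (-0.59) and Kdr (-0.54) were lower. The summed score, with Cdh5 as its largest part, was 4486 to 5713 in KO-labelled tumors and 5531 to 6115 in WT tumors. Cdh5, which encodes the junction protein VE-cadherin, was lower (log2 difference -0.66 ± 0.16, limma adjusted p = 0.00576), whereas Pecam1, which encodes CD31 and is also found on platelets and leukocytes, was higher (0.67 ± 0.08, adjusted p = 7.76e-05). Both were chosen from the list after their values were seen, apart from the use of Pecam1 in the ratios. The Clec14a to Pecam1 ratio was 0.0180 to 0.0449 in KO-labelled tumors and 0.0813 to 0.129 in WT tumors, a log2 difference of -1.78 ± 0.25 (exact permutation test, adjusted p = 0.0212). Every KO-labelled tumor was below the WT tumors for Clec14a and above them for Pecam1, so this ratio had to separate. Its p-value therefore adds nothing to the separate results of these genes. Mmrn2, the matrix ligand of the Clec14a protein, averaged 111.8 ± 15.2 in KO-labelled tumors and 108.6 ± 24.6 in WT tumors (log2 difference 0.06 ± 0.16, limma adjusted p = 0.802). The part of vessel content in the fall of Clec14a and Clec1a was not tested.

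**Figure D3:**
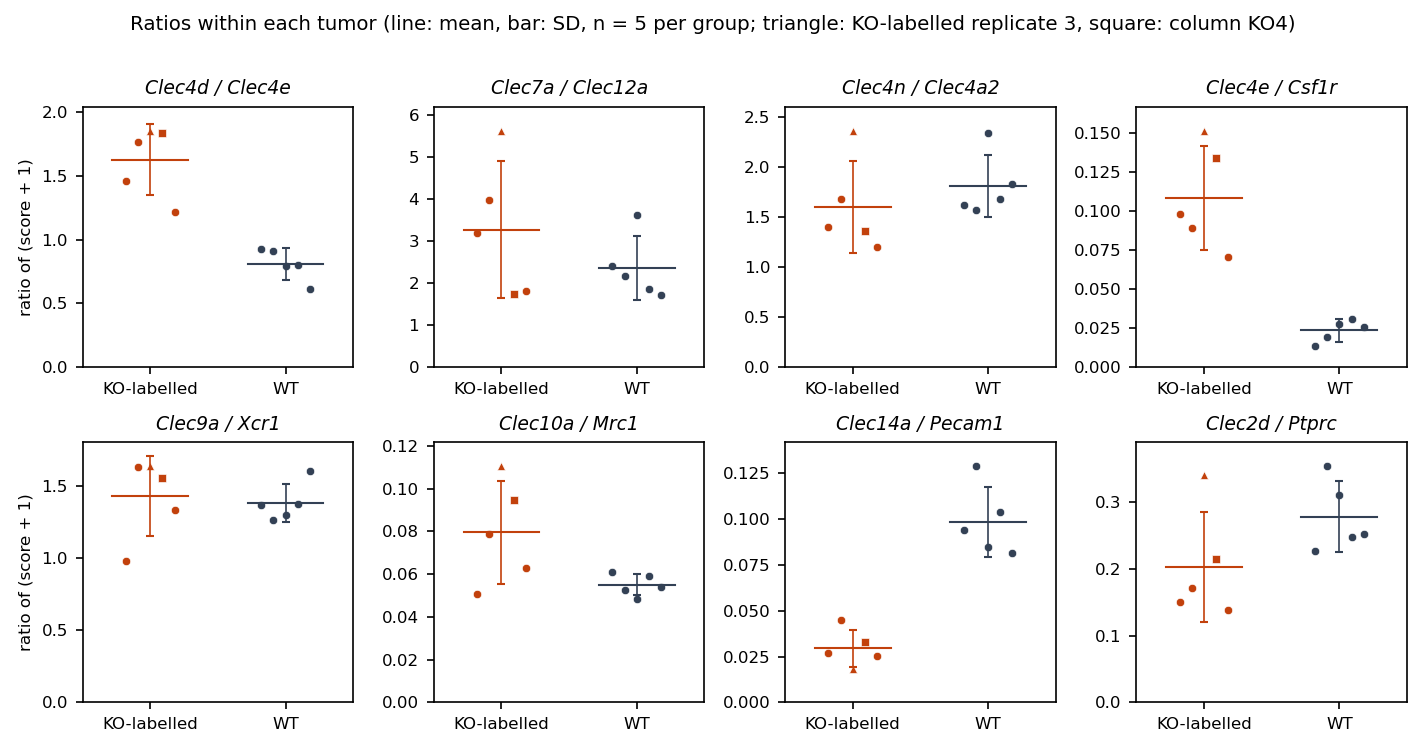
Ratio of (score + 1) of 2 genes within each tumor (y axis) for the 8 pairs tested, KO-labelled tumors left of WT tumors, with the line at the mean and the bar showing the SD (n = 5 per group). Clec4d to Clec4e and Clec4e to Csf1r have every KO-labelled tumor above every WT tumor, and Clec14a to Pecam1 has every KO-labelled tumor below.

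The secreted and intracellular members did not pass the test. Clec3b (tetranectin, a plasminogen-binding protein of plasma and stroma) scored 56, 63, 86, 21 and 43 in KO-labelled tumors, against 42, 48, 14, 18 and 39 in WT tumors. Both groups were widely spread, and the log2 difference of 0.74 had an interval of -0.13 to 1.60 (limma adjusted p = 0.172). Without column KO4 it was 1.03 and past the threshold (adjusted p = 0.045). Clec11a (osteolectin, a growth factor for bone and blood progenitors) was the lowest of the 19 per kilobase, with 14, 10, 13, 24 and 12 in KO-labelled tumors, against 27, 26, 26, 15 and 18 in WT tumors. The log2 difference was -0.61 (interval -1.20 to -0.02, adjusted p = 0.0976), and without column KO4, the highest KO-labelled tumor, it was -0.79 and past the threshold (adjusted p = 0.0309).

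Clec16a, which encodes an endosomal protein of autophagy and not a surface lectin, scored 358, 270, 263, 242 and 306 in KO-labelled tumors, against 329, 339, 370, 321 and 375 in WT tumors. KO-labelled replicate 1 lay within the WT range and the other 4 KO-labelled tumors lay below it. The log2 difference was -0.28 ± 0.11 (limma adjusted p = 0.065), and without replicate 1 it was -0.36 and past the threshold (adjusted p = 0.0125).

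To compare levels between genes, scores were divided by the kilobases of merged exons. In KO-labelled tumors the highest mean levels per kilobase were those of Clec4a1 (1274), Clec4n (1173), Clec7a (1161) and Clec2d (1130). In WT tumors they were those of Clec2d (892), Clec4n (891), Clec4a1 (688) and Clec4a3 (634). Clec4d was 6th of 19 in KO-labelled tumors (641 per kilobase) and 10th in WT tumors (64.9 per kilobase), and Clec4e was 10th in KO-labelled tumors (122 per kilobase) and 14th in WT tumors (26.6 per kilobase). Clec1a, Clec14a and Clec11a filled ranks 17 to 19 in KO-labelled tumors, with 10.5, 6.43 and 4.90 per kilobase. Neighbours at the top of the KO-labelled order differed by less than their spread, as the SD of Clec4a1, Clec4n, Clec7a and Clec2d was between 34.1% and 40.7% of the mean.

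KO-labelled tumors varied more among themselves. The SD on the log2 scale was larger in KO-labelled than in WT tumors for 18 of the 19 genes, with a median of 0.48 in KO-labelled and 0.26 in WT tumors, beside medians over all genes of 0.22 in KO-labelled and 0.11 in WT tumors. The wider spread of KO-labelled tumors was thus not particular to Clec genes. Column KO4 was the highest KO-labelled tumor for 9 genes and replicate 3 for 5, and both stood above the other 3 KO-labelled tumors for Clec2d, Clec4a2, Clec4d, Clec4e, Clec4n, Clec5a, Clec7a and Clec9a. Clec1a and Clec14a ran the other way in replicate 3, which had the lowest score of both.

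Most Clec genes of chromosome 6 lie in 2 groups, while Clec2l and Clec4f, both listed at 0, and Clec5a lie elsewhere. The first holds 9 Clec genes within 368 kb, of which 7 were measured, 5 were higher and 2 did not pass. The second holds 12 within 810 kb, of which 6 were measured, 3 were higher, 1 was lower and 2 did not pass. Over all genes 17.5% were higher and 18.2% lower, and in the first group the calls of Clec4a2 and Clec4a3 were lost when single WT tumors were left out. Neighbours in the second group differed in direction, since Clec1a (chr6:129424772-129452000) was lower and Clec7a (chr6:129461591-129472779), 9.59 kb away on the same strand, was higher. Clec9a ends 8 bases from Clec1a on the opposite strand and did not pass the test. Because no source used here gives the strand setting of the counting, reads near that boundary could be assigned to either gene.

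**Figure D4:**
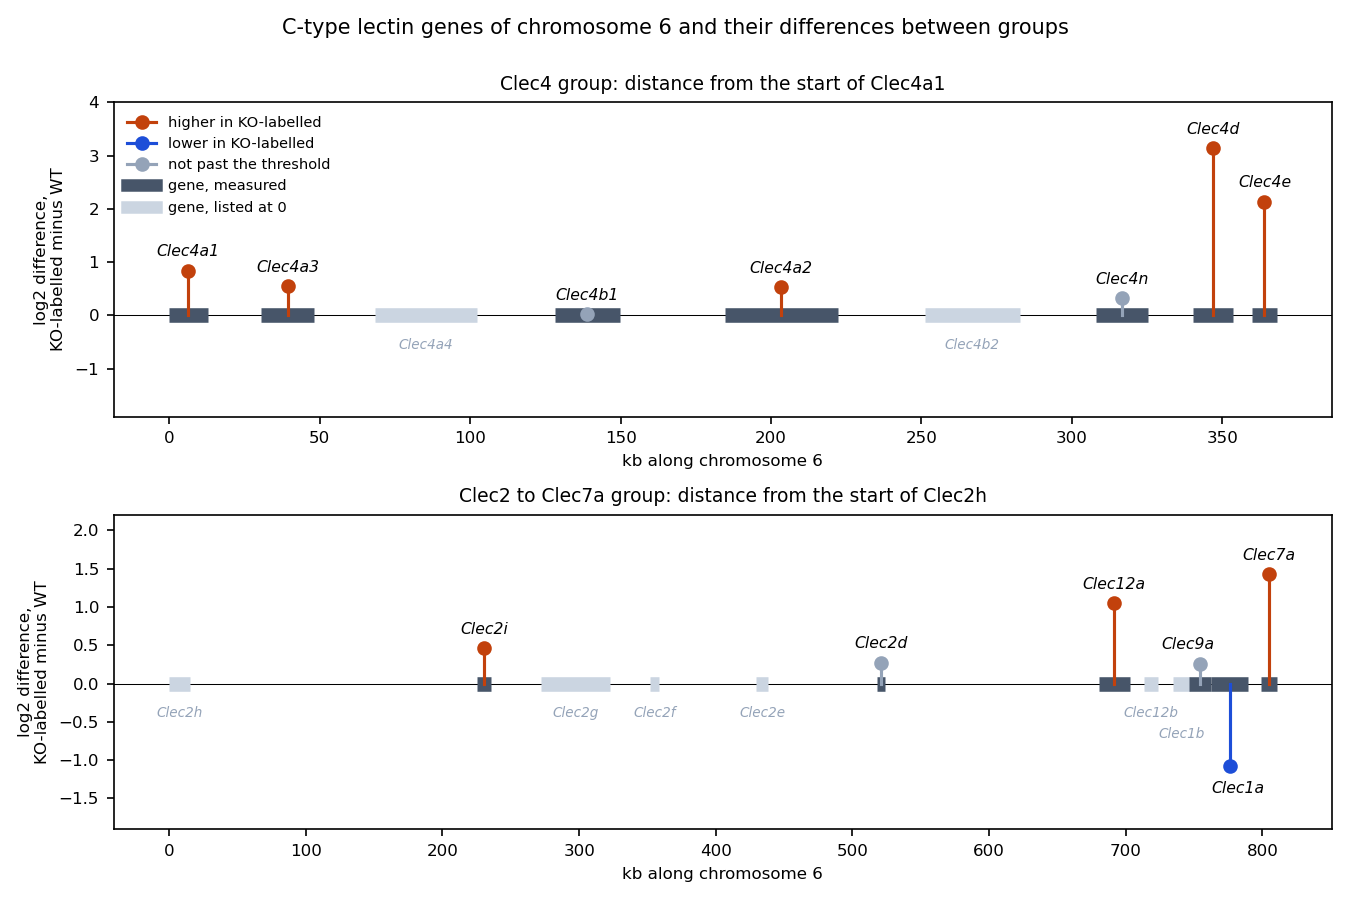
Log2 difference (y axis, KO-labelled minus WT) of the measured Clec genes along the 2 groups on chromosome 6, by distance in kb from the first gene of each group, with genes listed at 0 in pale grey. In the first group Clec4d and Clec4e stand at one end with 3.14 and 2.14, and in the second Clec1a, at -1.08, lies next to Clec7a, at 1.43.

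The 10 macrophage markers were measured in all tumors, and 6 were higher and none lower. Over all genes 17.5% were higher and 18.2% lower. The summed scores were 58184 to 96483 in KO-labelled tumors and 50670 to 62255 in WT tumors, a log2 difference of 0.31. Most of this sum comes from C1qa (0.41), C1qb (0.40), C1qc (0.39) and Lyz2 (0.19, not past the threshold). Of the rest, Fcgr1 (0.76), Cd68 (0.72) and Itgam (0.57) were higher, while Csf1r, Adgre1 and Mertk did not pass. Divided by this sum, Clec4d (log2 difference 2.83), Clec4e (1.83) and Clec7a (1.12) kept every KO-labelled tumor above every WT tumor, and Clec14a (-1.41), Clec1a (-1.38) and Clec11a (-0.92) had every KO-labelled tumor below. Under the same division 2.75% of all genes were fully above and 21.1% fully below, so the 3 genes below are no more than the background gives. Clec12a (0.74), Clec4a1 (0.53), Clec4a2 (0.22), Clec4a3 (0.24), Clec5a (0.24) and Clec2i (0.15) overlapped between groups after this division, which was chosen after seeing the data and carries no test. Of 8 monocyte markers 6 were higher and 1 lower. The lower one was Fn1, with 21131 to 50471 in KO-labelled tumors and 59911 to 68353 in WT tumors, which makes up most of the summed score of 39653 to 61066 in KO-labelled and 69028 to 75643 in WT tumors. The other 7 summed to 10595 to 18522 in KO-labelled tumors and 6877 to 9117 in WT tumors. Of 12 neutrophil markers 7 were tested, 4 were higher and 1 lower, with sums of 1169 to 1989 in KO-labelled tumors and 998 to 1300 in WT tumors, while Cxcr2, Retnlg, Camp and Ltf are listed at 0. The part of monocytes and neutrophils in the Clec results was not tested.

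Genes that act with these receptors were counted in lists. Of 26 adaptors, kinases and phosphatases of the pathway, 14 were higher, 2 were lower and 10 did not pass, with a median log2 difference of 0.33, against 35.6% of all genes called in either direction. Fcer1g, the shared adaptor of Mincle, MCL and Dectin-2, averaged 5394 ± 1585 in KO-labelled tumors and 2665 ± 273 in WT tumors (log2 difference 0.98 ± 0.16, limma adjusted p = 0.000505). The Src-family kinase Lyn (0.69 ± 0.08), the exchange factor Vav1 (0.61 ± 0.10) and the scaffold Lcp2 (0.70 ± 0.12), which encodes SLP-76, were also higher. The lower genes were Map3k14 (-0.54 ± 0.07), the NF-kB inducing kinase of the noncanonical pathway, and Plcg2 (-0.34 ± 0.09), the phospholipase downstream of Syk. Card9, the adaptor between Syk and NF-kB, was among those that did not pass (0.11 ± 0.14, adjusted p = 0.551, chosen after its value was seen).

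Of 21 tested cytokines, enzymes and regulators that these receptors can induce, 16 were higher, 2 were lower and 3 did not pass, with a median log2 difference of 0.99. Among all genes 17.5% were called higher and 18.2% lower. The nitric oxide synthase Nos2 (4.40 ± 0.32), the chemokines Ccl4 (2.49 ± 0.16) and Ccl2 (1.66 ± 0.17) and the prostaglandin synthase Ptgs2 (2.11 ± 0.18) had the smallest p among the higher genes. Egr3, a transcription factor (-0.86 ± 0.15), and Il12b, the p40 chain of interleukin 12 (-0.82 ± 0.24), were lower. Many other receptors induce the same genes.

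C-type lectins outside the Clec naming had no common direction. Of 49 listed, 27 are listed at 0 and 21 were tested, with 8 higher, 10 lower and 3 not past the threshold (median log2 difference -0.29). The shares among all genes were 17.5% higher and 18.2% lower. The B cell and myeloid receptor Cd72 (0.95 ± 0.16), the proteoglycan Vcan (0.84 ± 0.16) and Cd93 (0.61 ± 0.13) were higher. The stromal endosialin Cd248 (-1.62 ± 0.10), the scavenger receptor Colec12 (-0.98 ± 0.10), the collagen receptor Mrc2 (-0.71 ± 0.10) and Pkd1 (-0.99 ± 0.15) were lower. Of the 10 fibroblast markers 8 were lower and 2 higher, with sums of 76930 to 106470 in KO-labelled tumors and 151771 to 173622 in WT tumors, and their part in the fall of Cd248 and Mrc2 was not tested.

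Of 16 tested ligands and partners, 3 were higher, 4 were lower and 9 did not pass, with a median log2 difference of 0.17. As 17.5% of all genes were called higher and 18.2% lower, these counts are near the background and show nothing particular to ligands. Pdpn, which encodes the podoplanin bound by the platelet receptor CLEC-2, rose by 1.16 ± 0.14 on the log2 scale (limma adjusted p = 7.73e-05), while the gene of that receptor, Clec1b, is listed at 0, as are the platelet genes Ppbp, Gp9, Gp1ba, Gp6 and Treml1. The other 2 platelet genes were measured and did not pass, Pf4 with 612 ± 273 in KO-labelled and 568 ± 81.4 in WT tumors and Itga2b with 76.4 ± 18.4 in KO-labelled and 64.2 ± 12.0 in WT tumors. Actb, whose product forms the filaments seen by DNGR-1, was higher (0.29 ± 0.10), and Gsn, which severs actin filaments, was lower (-0.46 ± 0.08). Anxa1 (-0.53 ± 0.07), an annexin of dying cells, the plasminogen activator Plat (-0.71 ± 0.18) and the basement membrane proteoglycan Hspg2 (-0.77 ± 0.20) were lower.

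**Figure D5:**
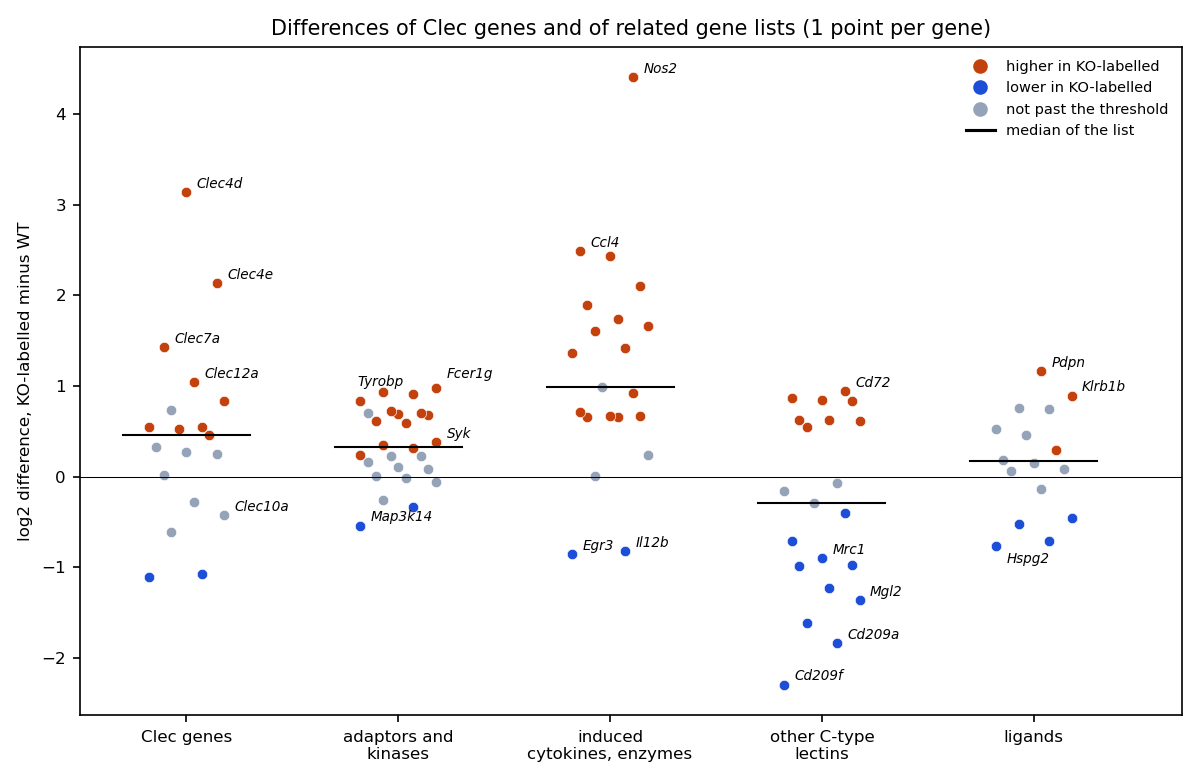
Log2 difference (y axis, KO-labelled minus WT) of each tested gene (points) in the Clec set and in 4 related lists, with the black line at the median. The medians are 0.46 for the Clec genes, 0.33 for adaptors and kinases, 0.99 for induced cytokines and enzymes, -0.29 for other C-type lectins and 0.17 for ligands.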

How the data were processed

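Poly(A) RNA of whole tumors was made into directional libraries and sequenced as single 75-base reads. As the submitters' processing notes and the study's methods say, the authors used FastQC, STAR on mouse build mm10, featureCounts and edgeR (through SARTools). No source used here gives versions, annotation or strand setting. The deposited table holds 1 score per gene and tumor, which is the authors' normalized read count rounded to a whole number. Because these are not raw counts, no count test was run. From the steps between low scores, library depth was estimated at 10.8 M to 18.5 M counted reads, a rough figure since the fits behind it had correlations of 0.318 to 0.889. Genes listed at 0 in all tumors (11495) were left out, and since no other gene had a mean under 9.8, a 0 is not taken to mean that a gene is silent. In all, 20 tested symbols are dates, as spreadsheets make them, and were not named.

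The knockout tumors are numbered 1, 2, 3, 5 and 6 in the titles but KO1 to KO5 in the columns, so columns KO4 and KO5 carry no replicate number here. No tie to litters or days is labelled. The p-values set the difference between groups against the spread between tumors of a group. A litter or day effect that follows genotype could not be told apart from it. Squared differences between tumors of a group were 12.1 to 56 times (KO-labelled) and 5.66 to 11 times (WT) what counting error would give, so no pair of libraries looked like copies of each other.

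Values of log2(score + 1) were tested with limma 3.58.1 in R 4.3.3 (intercept and genotype, mean-variance trend, Benjamini-Hochberg over 12926 genes, threshold 0.05), a scale that understates changes of low genes. Ratios within tumors were tested with a two-sided exact permutation test. Coordinates, exon lengths and shared 75-base windows came from GENCODE vM21 (GRCm38, the same assembly as mm10). Every measured Clec gene is named, as are the ratio partners and, of each list, the 4 genes with the smallest p in each direction, of which 1 is not reported here. Other genes were chosen after their values were seen. The members and lists were chosen with earlier results of these data known, so their counts are descriptions. Alternatives were another pseudocount, a minimum mean, other scalings, no trend, array weights, leaving out tumors, a replicate block and the thresholds of the study.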

Additional observations from a re-analysis of the deposited data

Results flagged for a closer look

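Among 38 groups of 5 tumors checked for single genes and 16 for ratios, 3 were found in which the highest tumor stood further from the others than the 95% limit for such a gap. Chance would flag about 1 in 20 independent groups. The groups here share tumors and genes, so the count of 3 was not tested against chance. All 3 concern column KO4 among the KO-labelled tumors. Clec2i scored 183 there, against 111 to 117 in the other KO-labelled tumors. Clec12a scored 2076, against 633 to 927 in the others. Clec11a scored 24, against 10 to 14 in the others. Without this tumor Clec12a was still past the threshold, whereas Clec2i was no longer past it and Clec11a passed it as lower.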

How the results depend on the processing

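When each tumor was left out in turn, the number of higher Clec genes ranged from 5 to 9, that of lower ones from 2 to 3, and that of higher other C-type lectins from 5 (without WT replicate 3) to 8. Clec4d, Clec4e, Clec7a, Clec12a, Clec4a1, Clec14a and Clec1a passed the threshold in all 10 of these fits. Of the ratios, Clec9a to Xcr1 changed sign (-0.026 to 0.16, and -0.0070 without column KO4), Clec10a to Mrc1 ranged from 0.35 to 0.63 and Clec2d to Ptprc from -0.72 to -0.40 (-0.42 without WT replicate 3). Without KO-labelled replicate 3 and column KO4 together, a setting added after seeing the data, 5 Clec genes were higher, Clec9a to Xcr1 was -0.093, Clec2d to Ptprc was -0.85 and past the threshold, and Clec2d (-0.10), Clec4n (-0.049) and Clec9a (-0.053) changed sign.

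With a minimum mean score of 100, 13 Clec genes were tested and 0 were lower, as Clec14a and Clec1a fell under the filter (limma), and 6 other C-type lectins were lower. With the study's own thresholds (unadjusted p under 0.01 and log2 difference over 1 in either direction), 4 Clec genes were higher, the pathway list had 0 higher and 0 lower, the other C-type lectins 0 and 5, the ligands 1 and 0, and the induced genes 10 and 0. Clec4b1 changed sign with equal library totals (-0.032), with array weights (-0.037), without columns KO4 and KO5 (-0.47), without WT replicate 5 (-0.070) and without column KO4 (-0.14), and ranged from -0.18 to 0.17 when tumors were left out.

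The titles share 4 replicate numbers between the groups, of which only 2 and 3 could be tied to columns with certainty, and same-numbered tumors had correlations of their deviations of only 0.0349 and 0.0501, so the numbers were not taken to pair the tumors. With the replicate block over these 4 tumors, 7 Clec genes were higher and 2 lower, and Clec4b1 was at -0.45. Clec2i (0.27), Clec4a2 (0.19) and Clec4a3 (0.074) were then not past the threshold, and Clec2d (0.46, limma adjusted p = 0.0279) was. Clec4a2 was also not past it without the mean-variance trend (adjusted p = 0.052) or with equal library totals (adjusted p = 0.0569). Of 374 values of single Clec genes under an alternative, 324 kept direction and side of the threshold, 32 lost the call, 7 gained one and 11 changed sign. The causes were not tested.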
